A study of Vitis vinifera with 36 samples.

Results

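The 60 most abundant transcripts of the berry are described here, chosen by their mean FPKM over all 36 libraries. FPKM is the read count of a gene scaled to the length of its transcript and to the reads of the library, and a gene without an entry in a library was counted as 0. Genes that the study listed for the phenylpropanoid and flavonoid pathway and for hormone pathways (abscisic acid, ethylene and auxin) were left out, which removed 1 gene of this range, and 28441 genes were listed in all. The choice rests on the level over all libraries, so the levels of the members are a description and carry no test. Berries came from Cabernet Sauvignon (“CS”), a black-skinned cultivar, and “Riesling”, a white-skinned one, both grafted on SO4 rootstock under a rain shelter in southern China. The vines were forced with hydrogen cyanamide and cropped in summer, then pruned and forced again for a winter crop. RNA was taken from deseeded berries, the whole pericarp, at stages 35, 36 and 38 of the modified Eichhorn-Lorenz (E-L) scale, from the start of colouring and softening, through an intermediate stage, to harvest ripeness. Each of the 12 conditions had 3 biological replicates, each a sub-sample of berries, so a library averages over many berries and over skin and flesh.

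Veraison is the point at which the berry softens and begins to take up sugar, while malic acid declines and black-skinned cultivars start to build anthocyanins in the skin. The reads of a library are divided among all its transcripts, so transcripts of very high abundance leave less of a fixed total for the others. None of the 60 identifiers was paired with a name or description in the sources used here, so the members are given by identifier, position and gene structure, and neither functional groups nor the markers of pericarp and seed could be looked up.

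The expected counts, the estimated reads per gene, summed to 8367013 to 28686956 per library with a median of 10966200, and replicates of a condition had a Pearson r of 0.956 to 0.995 on log2(FPKM + 1). Of the 60 members, 60 were listed in all 36 libraries. Several “Riesling” libraries stood apart. The mean log2 CPM of 148 genes that rose from stage 35 to stage 38 in the 3 series outside “Riesling” summer, minus that of 624 genes that fell there, was -0.72 to -0.57 in “Riesling” summer berries labelled stage 38, below the 0.10 to 0.95 of those labelled stage 36. The genes were chosen in the 3 other series, so the order of stage 35 and stage 38 there is fixed by the choice. By this measure the libraries labelled “Riesling” summer stage 38 go against their label, and they are so described below. “Riesling” winter berries at stage 36 also lay low, at -0.57 to -0.32. What lies behind these values was not tested. Of the members, 4 and 3 were among the genes that rose and fell. Replicate 3 of “Riesling” summer stage 35 had 21 of the 60 members at 50% or less of the mean of the other 2 replicates, and replicate 2 of “Riesling” winter stage 35 had 14, against 0 to 4 in each of the other 34 libraries. Replicate 3 of “Riesling” summer stage 36 had 6 members at 2 times or more the mean of its other replicates, and replicate 1 of “Riesling” summer stage 35 had 10, where the others include replicate 3. The part of these libraries in the results was not tested beyond the values given without them.

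The members were short genes with few exons. At the same number of reads a shorter transcript has a higher FPKM, so the ranking by FPKM favours short genes. Their median length was 1017 bp, against 1727 bp for the 17372 genes with a mean FPKM of at least 1 and 1462 bp for all listed genes. Of the 60, 41 (68.3%) had at most 2 exons. The share was 32.7% among the genes with a mean FPKM of at least 1 and 42.1% among all listed genes. A single exon was found in 12 (20%), against 12.4% and 18.8% of these genes. The encoded proteins were 34 to 650 amino acids long with a median of 183.5, and 15 were under 100 amino acids. The expected counts, which do not divide by length, gave the members 13.4% to 27.0% of each library. The ranking was steep at its top, with a mean of 39425 FPKM for VIT_205s0049g00520 and 15785 FPKM for VIT_205s0049g00760, and flat at its end. The members ranked 56 to 60, which are VIT_202s0025g03600, VIT_213s0019g01430, VIT_208s0007g06040, VIT_218s0001g03580 and VIT_203s0091g00990, had means of 818 to 767 FPKM. The genes ranked 61 to 65 had 757, 741, 735, 726 and 719.9 FPKM.

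Many members were neighbours on a chromosome. Of the 60, 19 lay in 8 groups whose members were within 100000 bp of the next one, and 17 chromosomes held at least 1 member, with 8 each on chromosomes 5 and 19. The largest group held VIT_219s0090g01340, VIT_219s0090g01350, VIT_219s0090g01360 and VIT_219s0090g01370 in 44884 bp of chromosome 19 (7399533 to 7444416, genome 12X V2), all 4 gene models of that span. Each had 2 exons and coded for a protein of 85 to 95 amino acids. Together they took 4.30% of all FPKM on average and 0.355% to 9.57% in single libraries. A group on chromosome 2 (3808937 to 3822797) held VIT_202s0025g04300, VIT_202s0025g04310 and VIT_202s0025g04330, whose proteins were 222 to 225 amino acids long. Reads that fit more than 1 gene can leave a fractional expected count when they are divided. Of the members, 22 had a fractional count in 30 or more libraries, 28 in 0 libraries and 10 in 1 to 29. VIT_219s0090g01340, VIT_219s0090g01350, VIT_202s0025g04300 and VIT_202s0025g04310 were among the 22, and how their reads were divided between copies is uncertain.

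The 60 transcripts took between 20.1% and 42.0% of all FPKM in a library. In “CS” summer berries the share in the 3 replicates was 34.0, 31 and 31.3% at stage 35, 35.9, 37.2 and 36.3% at stage 36 and 40.3, 41.2 and 42.0% at stage 38. Each stage lay above the one before it, with no overlap between replicates. Winter berries of “CS” had 31.6, 31.1 and 32.7% at stage 35, 39.9, 40.8 and 41.3% at stage 36 and 37.6, 37.5 and 38.8% at stage 38. Here the share was highest at stage 36 and lower at stage 38, again without overlap. “Riesling” summer berries had 26.5, 25.5 and 20.1% at stage 35, 26.2, 27.2 and 25.1% at stage 36 and 26.9, 26.8 and 27.6% at stage 38. They were the lowest of all libraries at stage 36 and stage 38, and replicates of neighbouring stages overlapped. “Riesling” winter berries had 27.8, 20.9 and 24.9% at stage 35, 33.3, 33.6 and 35.1% at stage 36 and 37.8, 39.0 and 38.6% at stage 38, each stage above the one before.

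**Figure D1:**
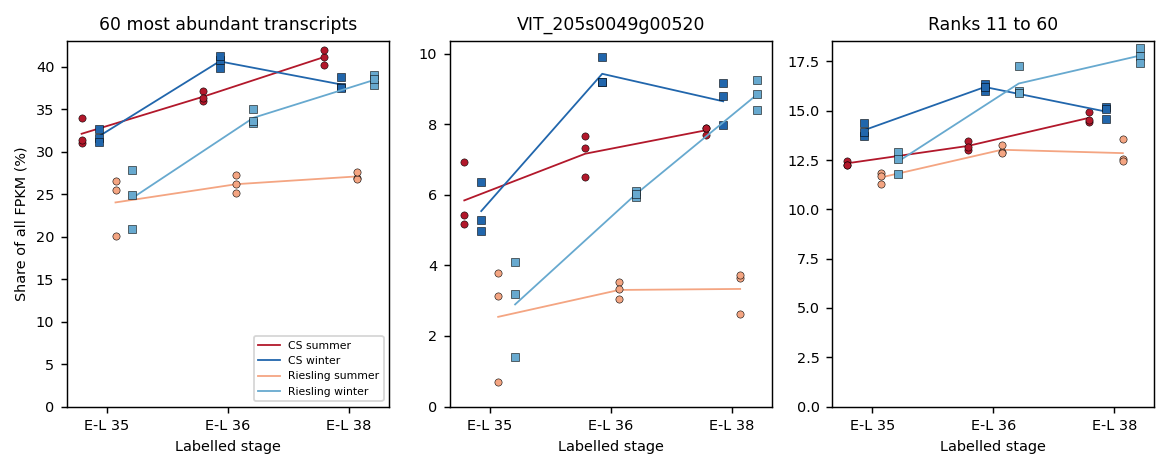
Share of all FPKM (%) against the labelled stage for the 60 members, for VIT_205s0049g00520 alone and for the members ranked 11 to 60; points are the 3 replicates of a condition and lines join the means. The summer libraries of “Riesling” lie between 20.1% and 27.6% in the first panel, below every library of “CS”, whose lowest is 31%.

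Winter and summer berries differed in opposite directions at the last stage of the 2 cultivars (mean and SD of 3 replicates). At stage 35 winter and summer berries overlapped in both, at 31.8% ± 0.785 and 32.1% ± 1.62 in “CS” and 24.6% ± 3.45 and 24.0% ± 3.48 in “Riesling”. Without the replicates that stood apart, “Riesling” at stage 35 had a mean of 26.0% in summer and 26.4% in winter. At stage 36 the winter share was higher, by 4.18 points in “CS” and 7.82 points in “Riesling”, with no overlap. At stage 38 it was lower in “CS”, 37.9% ± 0.706 against 41.1% ± 0.864, and higher in “Riesling”, 38.5% ± 0.588 against 27.1% ± 0.418. The “Riesling” value at stage 38 rests on the libraries that go against their label. Between the cultivars, “Riesling” was lower than “CS” in both seasons at stage 35 and stage 36 and in summer at stage 38, without overlap, with differences of -6.64 to -14.0 points. In winter at stage 38 the libraries of the 2 cultivars overlapped.

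With its own 60 highest genes for each condition, the conditions kept their order, except that “Riesling” summer berries at stage 35 came above “Riesling” winter berries. Their shares were 33% (stage 35), 37.0% (stage 36) and 41.5% (stage 38) in “CS” summer berries, 32.3%, 41.4% and 38.8% in “CS” winter berries, 25.9%, 27.2% and 28.5% in “Riesling” summer berries and 25.6%, 35.0% and 39.3% in “Riesling” winter berries. Between 42 and 54 of the members were among the 60 highest of a condition, 21 members were so in all 12 conditions, and 121 genes were so in at least 1. The 60 genes ranked next took only 4.24% to 6.07% of a library.

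Single members gave large parts of these changes in share. From stage 35 to stage 38 the share of “CS” summer berries grew by 9.02 points, of which VIT_219s0090g01370 gave 5.02 and VIT_205s0049g00520 1.99, while the share of VIT_219s0014g02740 fell by 1.71. “Riesling” winter berries gained 13.9 points over the same stages, 5.95 from VIT_205s0049g00520, 2.83 from VIT_219s0090g01350 and 2.08 from VIT_219s0090g01340. The 3 last named are 1 gene of chromosome 5 and 2 neighbours of chromosome 19. Winter exceeded summer in “Riesling” at stage 38 by 11.4 points, with 5.51 from VIT_205s0049g00520, 2.65 from VIT_219s0090g01350 and 1.96 from VIT_219s0090g01340. The share of VIT_201s0011g05110 differed by -2.09. In “CS” at the same stage winter minus summer was -3.20 points, and the greatest single part, -1.68 points, was that of VIT_205s0049g00760. In summer at stage 38, “Riesling” minus “CS” was -14.0 points, of which -5.63 lay in VIT_219s0090g01370 and -4.50 in VIT_205s0049g00520.

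The most abundant transcript of the berry was VIT_205s0049g00520 (chromosome 5, 7580334 to 7581366, minus strand), a gene of 2 exons that codes for 217 amino acids. It took 0.704% to 9.91% of all FPKM in a library and was the highest gene in 11 of the 12 conditions. “Riesling” summer stage 35 was the exception, where VIT_219s0014g02740 was higher in the mean. This order rests on replicate 3, which stood apart, and VIT_205s0049g00520 was the higher gene in the other 2 replicates. In “CS” summer berries its level was 45839.8, 33673 and 35300.4 FPKM at stage 35, 43484, 51294 and 48589 at stage 36 and 53856, 53272 and 55192 at stage 38. “CS” winter berries had 32457, 33860.3 and 40538 FPKM at stage 35, 62175, 63063 and 67672 at stage 36 and 58823, 52795 and 61065 at stage 38. The winter replicates at stage 36 lay above all summer ones of “CS”. “Riesling” summer berries had 24316, 20401 and 4383 FPKM at stage 35, 22115, 20998 and 19288 at stage 36 and 23539, 23981 and 17476 at stage 38, and “Riesling” winter berries 25517, 8449 and 20041 FPKM at stage 35, 38784, 40059 and 40779 at stage 36 and 55408, 59255 and 61578 at stage 38. Of the 2 series of “Riesling”, the winter one reached the level of “CS”, at stage 38.

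A gene left out of the members overlaps it. VIT_205s0049g00510, listed by the study as an ethylene response factor, lies on the opposite strand. In all, 300 of the 976 exonic bases of VIT_205s0049g00520 fall in its exons. The mean of VIT_205s0049g00510 was 5116 FPKM, rank 14 over all genes, and its FPKM was 0.117 to 0.144 of that of VIT_205s0049g00520 in every one of the 36 libraries. Whether the counting used strand is not given in the sources used here, so it is uncertain to which of the 2 genes reads in the shared bases were counted. VIT_205s0049g00520 had a fractional count in 0 libraries.

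The next members by level were VIT_205s0049g00760 (chromosome 5, 7787881 to 7788928, minus strand, 1 exon, 268 amino acids), VIT_219s0090g01370 (chromosome 19, 7443640 to 7444416, plus strand, 90 amino acids), VIT_206s0004g02560 (chromosome 6, 3075721 to 3076606, plus strand, 1 exon, 220 amino acids), VIT_201s0011g05110 (chromosome 1, 4747830 to 4748946, plus strand, 151 amino acids) and VIT_219s0014g02740 (chromosome 19, 2788970 to 2790543, minus strand, 65 amino acids). The first ranged from 12312 to 33525 FPKM over the 18 “CS” libraries and from 1571 to 13629.9 FPKM over the 18 “Riesling” libraries. VIT_219s0090g01370 ranged from 8167 to 45926 FPKM in “CS” and from 422 to 17402 FPKM in “Riesling”. In both, the ranges of the 2 cultivars overlapped, and the highest level was that of “CS” summer berries at stage 38. VIT_201s0011g05110 was highest in “Riesling” summer berries at stage 38, at 16527, 15851 and 21265 FPKM, and lowest in “CS” winter berries at stage 38, at 936, 707 and 814 FPKM. VIT_219s0014g02740 was highest in “Riesling” summer berries at stage 35, at 12122, 18885 and 29321 FPKM, and lowest in “CS” summer berries at stage 38, at 1641, 2710.0 and 2805 FPKM. Both were thus highest in “Riesling” summer berries.

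Ranks 7 to 9 were less uneven. VIT_208s0056g01600 (chromosome 8, 55 amino acids) had condition means from 3558 ± 1558 FPKM (SD, n = 3) in “Riesling” summer berries at stage 35 to 12751 ± 485 FPKM in “Riesling” winter berries at stage 38. VIT_216s0022g00960 (chromosome 16, 198 amino acids) ranged from 4243 ± 224 FPKM in “CS” summer berries at stage 38 to 11861 ± 231 FPKM in “Riesling” winter berries at stage 36. VIT_218s0072g00380 (chromosome 18, 209 amino acids) ranged from 3696 ± 269 FPKM in “CS” winter berries at stage 38 to 8548 ± 1101 FPKM in “CS” summer berries at stage 35. The ratio of the highest to the lowest condition mean was 3.58, 2.80 and 2.31 for these 3 members. VIT_205s0094g00340 (chromosome 5, 23657612 to 23659290, minus strand, 264 amino acids) had a ratio of 12.4 and is taken up with the season. Over all members the ratio had a median of 4.69 and ran from 1.58 to 193, with 3 members under 2 and 17 over 10.

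**Figure D2:**
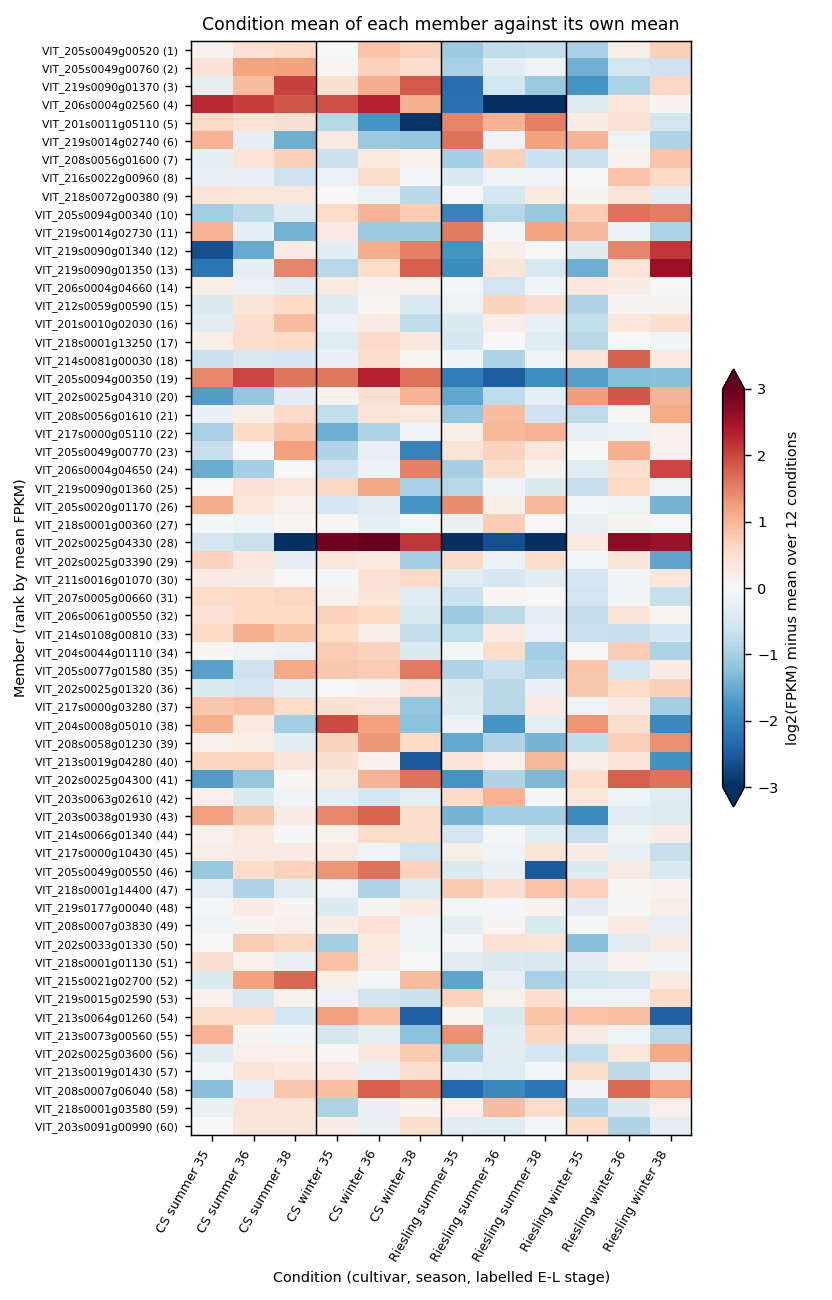
Each member (row, rank in brackets) in the 12 conditions (columns): log2 of the condition mean FPKM minus the member's mean of these values over the conditions, with the colour scale ending at -3 and 3. Rows such as VIT_202s0025g04330 switch with the season, rows such as VIT_205s0094g00350 with the cultivar, and VIT_219s0177g00040, with a high to low ratio of 1.58, stays pale.

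The members were compared between conditions with edgeR's quasi-likelihood test on the rounded expected counts of all 20183 genes that passed a filter on low counts, which all 60 members did. A member was called when the p adjusted after Benjamini and Hochberg over all genes tested was at most 0.01 and the fold change at least 2, and log2 fold changes are given with their SE. The share of all tested genes called stands in brackets beside each count of members, in the same order of directions. Very abundant transcripts have more reads and so a smaller counting error, and a share of members above that of all genes is to be read with this in view. The 20 comparisons share conditions and are not independent of each other. A member that is high in 1 season or cultivar can owe its place to it. Of the 60, 7 had a mean over the summer libraries below 767 FPKM, the lowest mean of a member, 2 had one over the winter libraries, 8 over those of “Riesling” and 4 over those of “CS”. These members are in the counts below, and the choice favours their direction in that contrast. Over all genes tested, the median of this log2 value lay between -0.03 and 0.03 in the 20 comparisons.

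Winter berries differed from summer berries in 11 to 27 members. In “CS”, 8 higher and 3 lower (all genes 4.54% and 5.83%, 10.4% in sum) were called at stage 35, 10 higher and 2 lower (all genes 6.5% and 5.82%, 12.3% in sum) at stage 36 and 5 higher and 14 lower (all genes 7.29% and 9.9%, 17.2% in sum) at stage 38. The balance turned from higher to lower in “CS” between stage 36 and stage 38, as it did over all genes. In “Riesling”, 10 higher and 5 lower (all genes 5.54% and 4.48%, 10% in sum) were called at stage 35, 17 higher and 3 lower (all genes 4.65% and 2.48%, 7.13% in sum) at stage 36 and 16 higher and 11 lower (all genes 11.8% and 16.1%, 27.9% in sum) at stage 38. Higher calls outnumbered lower ones at each stage of “Riesling”, as they did over all genes at stage 35 and stage 36 but not at stage 38. The stage 38 comparison rests on summer libraries that go against their label. Of the members, 7 had a summer mean below the lowest mean of a member and 2 had such a winter mean. The choice thus favours higher calls in winter, and counts without these members were not made. At stage 35 in “Riesling”, a fit of the 2 compared conditions alone called 3 members instead of 15, and that stage holds both replicates that stood apart. Without replicate 3 of “Riesling” summer stage 35 and stage 36 and all libraries labelled “Riesling” summer stage 38, 14 members were called in “Riesling” at stage 35 and 22 at stage 36, of which 13 and 20 were called with them.

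**Figure D3:**
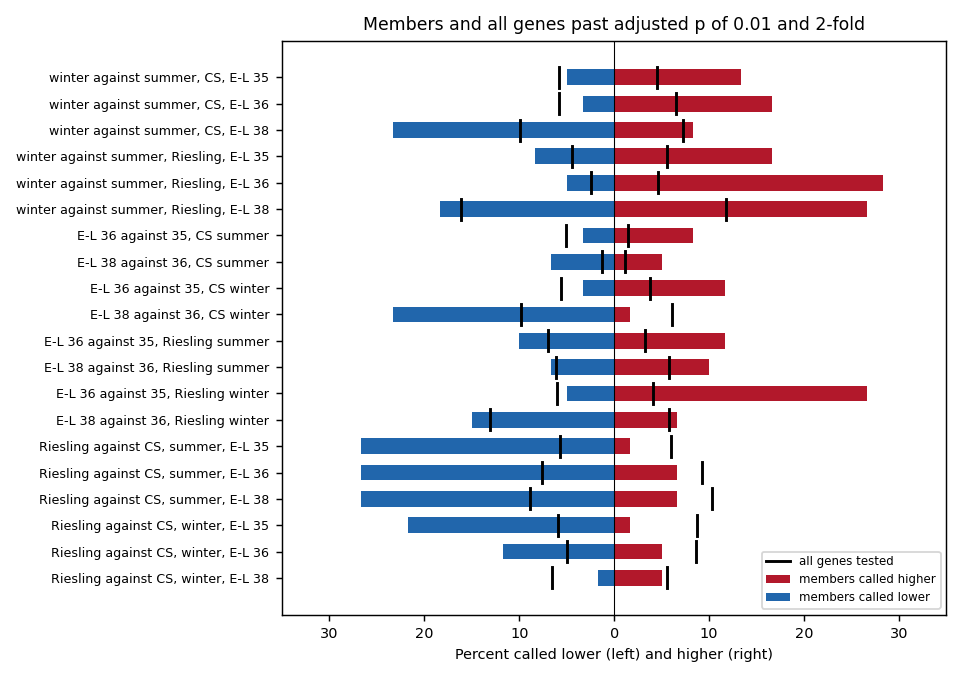
Percent of the 60 members called higher (right) and lower (left) in each of the 20 comparisons, with a black tick for the percent of all 20183 genes tested. The winter against summer comparison of “Riesling” at stage 36 had 17 members called higher and the 3 summer comparisons of “Riesling” with “CS” had 16 members each called lower.

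The group on chromosome 2 took 0.114% to 0.788% of all FPKM in the summer libraries and 0.934% to 2.30% in the winter ones, with no overlap. VIT_202s0025g04330 and VIT_202s0025g04300 are members through their winter libraries, so the share of the group is a description with no test. VIT_202s0025g04330 (chromosome 2, 3821899 to 3822797, plus strand, 1 exon, 222 amino acids) had the widest spread of all members, with a high to low ratio of condition means of 193. In “CS” summer berries it was at 329.9, 384 and 413 FPKM at stage 35, 386, 234 and 394 at stage 36 and 73.3, 57.5 and 55.9 at stage 38, and in winter berries at 3289, 3603 and 5116 FPKM at stage 35, 6506, 6340.1 and 6441 at stage 36 and 2953, 1969.6 and 2102 at stage 38. “Riesling” summer berries had 16.7, 15.9 and 67.2 FPKM at stage 35, 42.7, 29.1 and 187 at stage 36 and 50.3, 53.3 and 73.6 at stage 38, and winter berries 1080.0, 554 and 297 FPKM at stage 35, 3510.0, 3488 and 3324 at stage 36 and 3278, 3309 and 3150.1 at stage 38. Every winter replicate lay above every summer replicate of the same cultivar and stage. Replicate 3 was the highest summer library at each stage of “Riesling”. The gene is a member through its winter libraries, since its mean over the summer libraries was 159 FPKM, and it was among the 60 highest of 5 of the 12 conditions. Its season values are therefore a description with no test, with a log2 fold change of winter against summer of 3.47 ± 0.52, 4.40 ± 0.54 and 5.19 ± 0.57 in “CS”, and of 4.35 ± 0.55, 5.49 ± 0.57 and 5.83 ± 0.58 in “Riesling”.

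Its neighbours VIT_202s0025g04310 (chromosome 2, 3809792 to 3812825, plus strand) and VIT_202s0025g04300 (chromosome 2, 3808937 to 3809791, plus strand), each of 225 amino acids, adjoin each other and had a Pearson r of 0.930 on log2(FPKM + 1) over the 36 libraries. VIT_202s0025g04310 was called higher in winter in all 6 comparisons, by 1.31 ± 0.37 to 2.80 ± 0.39 on the log2 scale, and VIT_202s0025g04300 in 5 of 6. The last had a mean of 419.9 FPKM over the summer libraries, so its season values too are a description. The exception was “CS” at stage 38, at 1.53 ± 0.49. There replicate 1 of the summer berries held 2007 FPKM of VIT_202s0025g04300 against 298 and 310.2 in the others, and winter berries held 3149, 2136 and 2413. For VIT_202s0025g04310 the same library held 3294 FPKM against 684 and 676, so 1 summer library came close to the winter level in both genes. VIT_202s0025g04330 did not share this, at 73.3 FPKM in that library. As a description, the 3 genes together took 0.236% ± 0.0421 of all FPKM in summer and 1.58% ± 0.0557 in winter in “CS” at stage 36, and 0.264% ± 0.162 and 2.01% ± 0.258 in “Riesling”.

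VIT_205s0094g00340 was the most abundant of the members called higher in winter in all 6 comparisons. With only the compared conditions fitted, its call in “Riesling” at stage 35 was lost, at a log2 fold change of 2.68. “CS” summer berries held 1934, 2452 and 2423 FPKM at stage 35, 3062, 2188 and 2851 at stage 36 and 4146, 3290.0 and 3335 at stage 38, and “CS” winter berries 7081, 6706 and 6706 FPKM at stage 35, 9312, 9578 and 9322 at stage 36 and 8614, 7378 and 7338 at stage 38. In “Riesling” it stood at 1829.8, 1209 and 474 FPKM at stage 35, 2362, 2046 and 3339 at stage 36 and 1764, 1747 and 2903 at stage 38 in summer, and at 9939.5, 4740.3 and 8819 FPKM at stage 35, 14405, 14366 and 14881 at stage 36 and 13618, 13975 and 12749 at stage 38 in winter. Winter and summer replicates did not overlap at any stage of either cultivar. The log2 fold change was 1.07 ± 0.30 to 1.95 ± 0.31 in “CS” and 2.66 ± 0.31 to 2.73 ± 0.31 in “Riesling”, with adjusted p from 2.1e-08 to 0.00382 over the 6 comparisons. Its neighbour VIT_205s0094g00350 (chromosome 5, 23662399 to 23675612) followed the cultivar instead and is described with it.

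VIT_219s0090g01340 (chromosome 19, 7399533 to 7400465, plus strand, 94 amino acids) was also called higher in winter in all 6 comparisons. Its log2 fold change was 2.32 ± 0.28 (adjusted p = 2.7e-07), 2.78 ± 0.28 (adjusted p = 1.1e-08) and 1.23 ± 0.27 (adjusted p = 0.000358) in “CS”, and 1.41 ± 0.27 (adjusted p = 0.00015), 1.43 ± 0.27 (adjusted p = 0.000195) and 2.21 ± 0.28 (adjusted p = 7.3e-08) in “Riesling”. In “CS” at stage 36 the summer berries held 1274, 1498 and 1245 FPKM and the winter berries 7462, 8847 and 8366. The other 3 genes of this group on chromosome 19 were called in 1 comparison each, and whether they differ from it was not tested. VIT_219s0090g01350 lay above 0 in 6 of 6 season comparisons, with 1.34 ± 0.43 (adjusted p = 0.0147) in “CS” at stage 35, and VIT_219s0090g01360 in 5 of 6. VIT_219s0090g01350 and VIT_219s0090g01370 were called with the season in “Riesling” at stage 38 alone, higher in winter by 3.11 ± 0.46 (adjusted p = 1.2e-06) and 1.79 ± 0.42 (adjusted p = 0.000507), where the summer libraries go against their label. VIT_219s0090g01360 was called once, lower in winter in “CS” at stage 38 with a log2 fold change of -1.35 ± 0.29 (adjusted p = 0.000304). VIT_208s0007g06040 (chromosome 8, 340 amino acids), with a mean of 321 FPKM over the summer libraries, is likewise given as a description, with “Riesling” at stage 36 at 101, 95.2 and 212 FPKM in summer and 1689, 1677 and 1702 in winter.

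No member was called lower in winter in all 6 comparisons. VIT_201s0011g05110 was called lower in 5 of 6 comparisons, with log2 fold changes of -1.36 ± 0.23 (adjusted p = 4.2e-05), -2.0 ± 0.24 (adjusted p = 1.4e-07) and -3.46 ± 0.25 (adjusted p = 1.1e-11) in “CS”. At stage 38 in “CS” it held 6735, 9446 and 9973 FPKM in summer and 936, 707 and 814 in winter, without overlap. The fold change in “Riesling” was -1.24 ± 0.23 (adjusted p = 0.000111) at stage 35, -0.44 ± 0.23 (adjusted p = 0.145) at stage 36 and -2.0 ± 0.24 (adjusted p = 2.8e-08) at stage 38, where the summer libraries go against their label. VIT_205s0020g01170 (chromosome 5, 167 amino acids) was called lower in 4 comparisons, those at stage 35 and stage 38 of both cultivars, with log2 fold changes of -1.42 ± 0.15 to -2.32 ± 0.16. At stage 36 it was at -0.49 ± 0.15 (adjusted p = 0.0105) in “CS” and -0.18 ± 0.15 (adjusted p = 0.4) in “Riesling”. VIT_213s0073g00560, chosen here after its values were seen because its levels run close to those of VIT_205s0020g01170, was called lower in 4 comparisons too. Its mean over the winter libraries was 577 FPKM, below the lowest mean of a member, so its season values are a description.

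**Figure D4:**
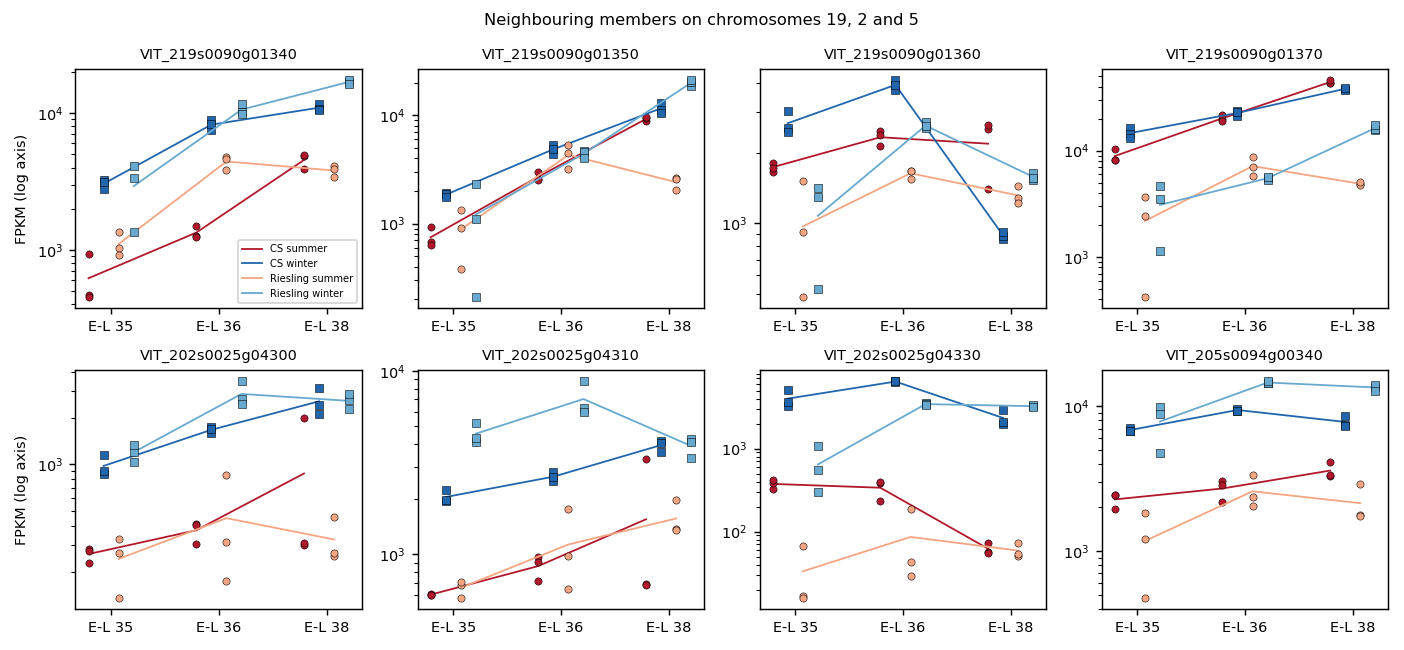
FPKM on a log axis against the labelled stage for 4 neighbours of chromosome 19 (top), 3 of chromosome 2 and VIT_205s0094g00340 (bottom); points are the 3 replicates of a condition and lines join the means. The winter points of VIT_202s0025g04330 lie at 297 to 6506 FPKM and the summer points at 15.9 to 413 FPKM.

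Along the stages, the number of members called ran from 7 to 19. From stage 35 to stage 36, 5 higher and 2 lower (all genes 1.46% and 5.04%, 6.51% in sum) were called in “CS” summer berries, 7 higher and 2 lower (all genes 3.78% and 5.62%, 9.39% in sum) in “CS” winter berries, 7 higher and 6 lower (all genes 3.28% and 6.92%, 10.2% in sum) in “Riesling” summer berries and 16 higher and 3 lower (all genes 4.13% and 6.01%, 10.1% in sum) in “Riesling” winter berries. Higher calls outnumbered lower ones in this step in all 4 series. From stage 36 to stage 38 the counts were 3 higher and 4 lower (all genes 1.12% and 1.28%, 2.41% in sum) in “CS” summer, 1 higher and 14 lower (all genes 6.06% and 9.83%, 15.9% in sum) in “CS” winter, 6 higher and 4 lower (all genes 5.78% and 6.12%, 11.9% in sum) in “Riesling” summer and 4 higher and 9 lower (all genes 5.8% and 13.1%, 18.9% in sum) in “Riesling” winter berries. In “Riesling” winter berries both counts lie near the shares of all genes. Several of these counts rest on single libraries. In “CS” summer berries the step from stage 35 to stage 36 gave 3 calls without replicate 2 or without replicate 3 of stage 35, and the step to stage 38 gave 1 call without replicate 1 of stage 38. The “Riesling” winter step from stage 35 to stage 36 gave 12 calls without replicate 2 of stage 35, and the “Riesling” summer step gave 0 when only its 2 conditions were fitted.

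The neighbours on chromosome 19 were followed along ripening. VIT_219s0090g01370 lay above 0 in 7 of 8 steps between stages and was called higher in 2 and lower in 0. It gave 5.02 points of the members' gain in share from stage 35 to stage 38 in “CS” summer and 3.46 in “CS” winter berries. VIT_219s0090g01350 (chromosome 19, 7430654 to 7431727, plus strand, 85 amino acids) was called higher in 6 of 8 steps between stages and lower in 0. In “CS” summer berries it went from 940.3, 671 and 632 FPKM at stage 35 to 2595, 3028 and 2519 at stage 36 and 8839.7, 9387 and 9587 at stage 38. Its steps were 1.91 ± 0.44 (adjusted p = 0.00198) and 1.80 ± 0.43 (adjusted p = 0.00734). “Riesling” winter berries went from 1099, 210.3 and 2333 to 4692, 4559 and 4013 and 18860.2, 20163 and 21146 FPKM, the highest level of this gene in any condition, with steps of 2.05 ± 0.44 (adjusted p = 0.00054) and 2.16 ± 0.44 (adjusted p = 0.000165). The winter berries of “CS” rose by 1.56 ± 0.43 (adjusted p = 0.00552) and then stood 1.10 ± 0.43 (adjusted p = 0.0354) higher, which missed the threshold. In “Riesling” summer berries the first step was 2.27 ± 0.44 (adjusted p = 0.000191), and the libraries labelled stage 38 were at -0.74 ± 0.42 against stage 36 (adjusted p = 0.169).

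VIT_219s0090g01340 was called higher in 5 of 8 steps. It rose from stage 35 to stage 36 in all 4 series, by 1.14 ± 0.27 and 1.6 ± 0.27 in summer and winter berries of “CS” and 2.0 ± 0.27 and 2.02 ± 0.27 in those of “Riesling”. The group of 4 took 1.83% ± 0.247, 3.98% ± 0.207 and 8.69% ± 0.335 of all FPKM in “CS” summer berries and 3.44% ± 0.288, 5.81% ± 0.339 and 9.26% ± 0.269 in “CS” winter berries (SD, n = 3). In “Riesling” winter berries it took 1.33% ± 0.730, 3.50% ± 0.0740 and 8.26% ± 0.224. These 3 series ended at 8.26% to 9.26% with non-overlapping stages. “Riesling” summer berries had 0.80% ± 0.438, 2.79% ± 0.330 and 1.91% ± 0.108 at the labelled stages. VIT_219s0090g01360 went the other way late in ripening, from 3734, 4103 and 3911 FPKM at stage 36 to 857, 886 and 919.6 at stage 38 in “CS” winter berries (-2.30 ± 0.30, adjusted p = 3.0e-07).

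VIT_206s0004g04650 (chromosome 6, 5621763 to 5622803, plus strand, 80 amino acids) was called higher in 5 steps, among them all 3 from stage 36 to stage 38 outside “Riesling” summer, by 1.05 ± 0.15, 1.52 ± 0.15 and 1.51 ± 0.15. It reached 5810.2, 6411 and 5992 FPKM in “Riesling” winter berries at stage 38 from 1092, 911 and 1490.3 at stage 35. Its neighbour VIT_206s0004g04660, with a protein of the same length, was called in 0 of the 20 comparisons. VIT_208s0007g06040 was called higher in 3 steps, all from stage 35 to stage 36. VIT_205s0020g01170 was called lower in 3 steps, of which the one in “CS” winter berries took it from 1185, 1346 and 1207 FPKM at stage 36 to 515, 449 and 428 at stage 38. VIT_219s0014g02740 was called lower in 5 steps and higher in 1. The single rise was from stage 36 to stage 38 in “Riesling” summer berries, from 6079.6, 7076 and 5153 to 14127, 13546 and 17958 FPKM (1.41 ± 0.22, adjusted p = 9.3e-06), in the libraries that go against their label.

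The cultivars differed in 4 to 20 members, and most calls outside winter stage 38 were lower in “Riesling”. Of the members, 8 had a mean over the “Riesling” libraries below the lowest mean of a member, and 4 had one over those of “CS”. The choice thus favours lower calls in “Riesling”, and counts without these members were not made. In summer, “Riesling” had 1 higher and 16 lower (all genes 5.99% and 5.66%, 11.6% in sum) than “CS” at stage 35, 4 higher and 16 lower (all genes 9.26% and 7.61%, 16.9% in sum) at stage 36 and 4 higher and 16 lower (all genes 10.3% and 8.84%, 19.1% in sum) at stage 38. In winter the counts were 1 higher and 13 lower (all genes 8.7% and 5.91%, 14.6% in sum) at stage 35, 3 higher and 7 lower (all genes 8.6% and 4.95%, 13.6% in sum) at stage 36 and 3 higher and 1 lower (all genes 5.54% and 6.56%, 12.1% in sum) at stage 38. The excess of members lower in “Riesling” thus shrank from stage 35 to stage 38 in winter, and at the last stage the share of members called was below that of all genes. The median log2 fold change of the members was -0.55 in summer at stage 36 and 0.08 in winter at stage 38, against 0.02 and -0.01 for all genes. The winter count at stage 36 was 5 or 6 without replicate 2 of “CS” or any 1 replicate of “Riesling”, and the one at stage 38 was 9 without the 5 “Riesling” summer libraries that stood apart. A fit of “Riesling” and “CS” summer berries at stage 35 alone called 5 members instead of 17.

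VIT_205s0094g00350 (chromosome 5, 23662399 to 23675612, minus strand, 5 exons, 427 amino acids) is a member through the “CS” libraries, since its mean over those of “Riesling” was 413 FPKM, and it was among the 60 highest of 6 of the 12 conditions. Its difference between the cultivars is therefore a description with no test. “CS” held 2732, 3997 and 4167 FPKM at stage 35, 5949.9, 4855 and 5475 at stage 36 and 3864, 4187 and 4228 at stage 38 in summer, and 4542, 4030.0 and 3517 FPKM at stage 35, 6809, 6649 and 6632 at stage 36 and 4260.3, 4048 and 4413 at stage 38 in winter. “Riesling” held 259, 247 and 444 FPKM at stage 35, 259.7, 218 and 251 at stage 36 and 302, 299 and 516 at stage 38 in summer, and 431, 425 and 424 FPKM at stage 35, 531, 523 and 613 at stage 36 and 568, 580.1 and 539 at stage 38 in winter. The lowest of 18 “CS” libraries, at 2732 FPKM, lay above the highest of 18 “Riesling” libraries, at 613 FPKM. The log2 fold change ran from -4.66 ± 0.20 to -2.93 ± 0.19 over the 6 comparisons. It had a fractional count in every library.

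VIT_206s0004g02560, ranked 4 by mean level, differed with both cultivar and season. All 18 “CS” libraries held 8015 to 20402 FPKM. “Riesling” summer berries held 1685, 742 and 90.6 FPKM at stage 35, 116, 83.2 and 209 at stage 36 and 167, 169 and 224 at stage 38, and “Riesling” winter berries 3770.2, 669.6 and 4702 FPKM at stage 35, 5309.8, 5297 and 4409 at stage 36 and 4526, 4806 and 3451 at stage 38. The “Riesling” libraries all lay below those of “CS”, and within “Riesling” the winter libraries of stage 36 and stage 38 lay above all summer ones. Against “CS”, “Riesling” was at -4.59 ± 0.62 (adjusted p = 1.4e-06), -7.12 ± 0.70 (adjusted p = 3.0e-09) and -6.41 ± 0.68 (adjusted p = 1.1e-08) in summer. In winter the difference was -2.50 ± 0.56 (adjusted p = 0.000782), -2.14 ± 0.56 (adjusted p = 0.00317) and -0.99 ± 0.54 (adjusted p = 0.161), the last not called. Winter against summer in “Riesling” was 5.37 ± 0.65 (adjusted p = 5.1e-07) at stage 36 and 4.57 ± 0.62 (adjusted p = 3.3e-07) at stage 38, and in “CS” 0.39 ± 0.54 (adjusted p = 0.605) and -0.85 ± 0.54 (adjusted p = 0.195). The “Riesling” summer libraries of stage 38 go against their label.

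**Figure D5:**
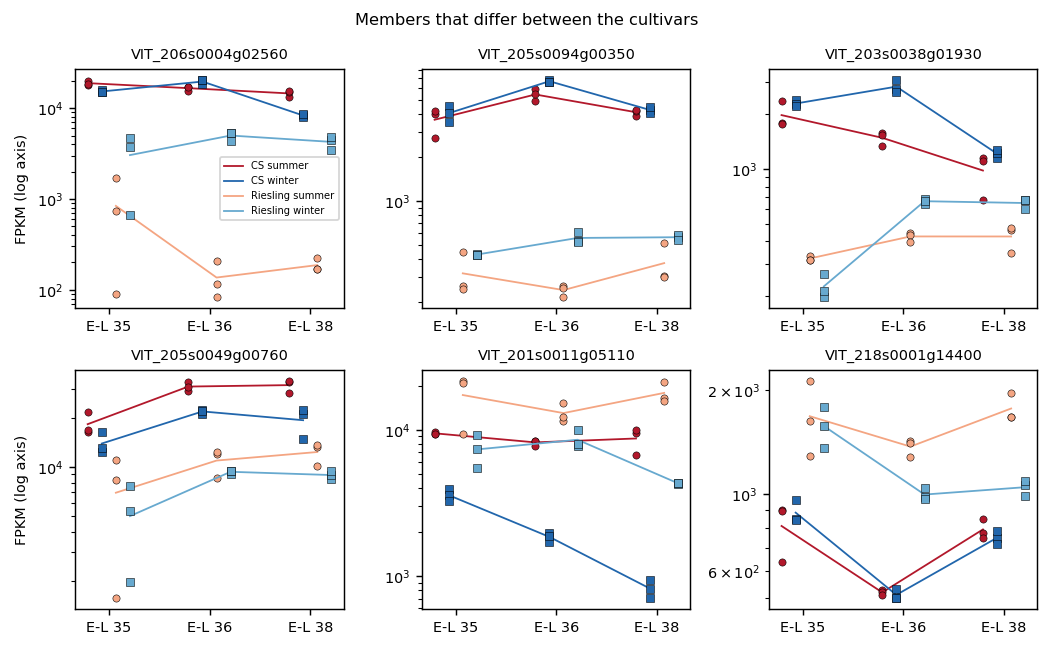
FPKM on a log axis against the labelled stage for 6 members, with the 3 replicates of a condition as points and their means joined by lines. VIT_206s0004g02560 and VIT_205s0094g00350 are higher in all “CS” libraries than in any “Riesling” library, and VIT_218s0001g14400 is lower, at 963 FPKM at most in “CS” and 968 at least in “Riesling”.

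Like VIT_206s0004g02560, the members VIT_203s0038g01930, VIT_219s0090g01370, VIT_205s0049g00760 and VIT_214s0108g00810 were called lower in “Riesling” in 5 of 6 comparisons, all but that of stage 38 in winter. VIT_203s0038g01930 (chromosome 3, 1347905 to 1348611, plus strand, 1 exon, 172 amino acids) was at 2388, 2284 and 2218 FPKM in “CS” and 266, 198 and 214 in “Riesling” at stage 35 in winter, a log2 difference of -3.50 ± 0.18. By stage 38 in winter the difference was -0.92 ± 0.16. It was a member through “CS”, with a mean of 453 FPKM over the “Riesling” libraries, and these values are a description. VIT_219s0090g01370 held 42869, 43388 and 45926 FPKM in “CS” and 4859, 4745 and 5052 in “Riesling” in summer at stage 38 (-3.29 ± 0.44, adjusted p = 6.3e-07), where the “Riesling” libraries go against their label. In winter at stage 38 it held 38337, 37133 and 38881 and 15742, 15816 and 17402 FPKM (-1.24 ± 0.41, adjusted p = 0.0189). VIT_205s0049g00760 had log2 differences of -1.39 ± 0.41 to -1.69 ± 0.41 where called, and its call in summer at stage 36 was lost without replicate 3 of “Riesling”. VIT_218s0001g14400 (chromosome 18, 172 amino acids), named here after its values were seen, was the one member higher in all “Riesling” libraries, with log2 differences of 0.47 ± 0.12 to 1.22 ± 0.12. Its mean over the “CS” libraries was 711 FPKM, below the lowest mean of a member, so these values too are a description. The share of all genes whose libraries do not overlap between the cultivars was not counted. Among the 10 highest, VIT_201s0011g05110 was called higher in “Riesling”, in winter at stage 36 (2.05 ± 0.24, adjusted p = 9.0e-08) and stage 38 (2.37 ± 0.24, adjusted p = 1.0e-08). VIT_219s0014g02740 was called higher in “Riesling” in summer at stage 38 (2.55 ± 0.23, adjusted p = 4.6e-10), where the “Riesling” libraries go against their label.

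The season effect of single members was compared between the cultivars by the interaction in the same fit, with an adjusted p of at most 0.01 and no fold limit. It differed for 2 members at stage 35 (all genes 1.53%), 13 at stage 36 (all genes 11.7%) and 18 at stage 38 (all genes 13.4%). At stage 36 the difference, “Riesling” minus “CS”, was positive in 10 members and negative in 3 (all genes 6% and 5.69%), and at stage 38 in 14 and 4 (all genes 6.37% and 7.01%). At stage 35 it was positive in 1 and negative in 1 (all genes 0.827% and 0.699%). VIT_206s0004g02560 had the greatest difference at both stages, 4.98 ± 0.80 (adjusted p = 5.2e-05) at stage 36 and 5.42 ± 0.81 (adjusted p = 1.8e-05) at stage 38. VIT_201s0011g05110 had a less negative season effect in “Riesling”, by 1.56 ± 0.32 (adjusted p = 0.000936) and 1.46 ± 0.32 (adjusted p = 0.00153) on the log2 scale. VIT_218s0072g00380 was at -0.37 ± 0.16 (adjusted p = 0.0747) in “CS” and 1.05 ± 0.16 (adjusted p = 2.2e-05) in “Riesling” for winter against summer at stage 36, and its interaction was 1.42 ± 0.23 (adjusted p = 6.4e-05). At stage 38 the comparison rests on “Riesling” summer libraries that go against their label, where VIT_219s0014g02740 (log2 difference -2.32 ± 0.31) and VIT_208s0056g01600 (2.14 ± 0.33) were among the members that differed.

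Among members not named by their rank or number of calls, several had a high to low ratio of condition means above 9, and these were singled out after their values were seen. VIT_215s0021g02700 (chromosome 15, 273 amino acids) ranged from 24.5 to 2762 FPKM over the libraries, lowest in “Riesling” summer berries at stage 35 and highest in “CS” summer berries at stage 38, where the replicates held 2460.2, 2762 and 2690.3. VIT_213s0064g01260 (chromosome 13, 356 amino acids) ran the other way along the stages, from 1485, 1508 and 1690.5 FPKM at stage 35 to 51.7, 157 and 166 at stage 38 in “CS” winter berries. VIT_204s0008g05010 (chromosome 4, 329 amino acids) likewise was highest at stage 35 in “CS” winter berries, at 3948, 3499.9 and 3262 FPKM, and lowest at stage 38 in “Riesling” winter berries, at 241, 253 and 229. In both, stage 38 was the lowest stage of the “CS” winter series. VIT_213s0019g04280 (chromosome 13, 284 amino acids) stood at 2130.2, 2117 and 2086 FPKM in “Riesling” summer and 317, 331 and 254 in “Riesling” winter berries at stage 38, a log2 fold change of -2.76 ± 0.24 (adjusted p = 1.4e-10). The summer libraries of that comparison go against their label. VIT_205s0077g01580 (chromosome 5, 158 amino acids) was highest in “CS” winter berries at stage 38, at 3210.1, 3132 and 2997 FPKM, and VIT_205s0049g00550, a neighbour of the most abundant transcript, was highest in “CS” winter berries at stage 36, at 2989.5, 2237 and 2657 FPKM. VIT_205s0049g00770 (chromosome 5, 303 amino acids), next to the second member by rank, was highest in “CS” summer berries at stage 38 and lowest in “CS” winter berries at stage 38, at 3495, 4678 and 4723 and 492, 407 and 473 FPKM. The season effect of VIT_205s0049g00550 at stage 35 was -2.40 ± 0.53 on the log2 scale as “Riesling” minus “CS”. Its “Riesling” summer replicates held 373, 253 and 1258 FPKM, of which the highest is the library that stood apart. Its means were 751 FPKM over the summer libraries and 629 FPKM over those of “Riesling”, both below the lowest mean of a member. The difference is therefore a description with no test.

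The steadiest members were found on several chromosomes. VIT_206s0004g04660, VIT_218s0001g00360, VIT_211s0016g01070, VIT_214s0066g01340, VIT_219s0177g00040 and VIT_208s0007g03830 were called in none of the 20 comparisons. The steadiest was VIT_219s0177g00040 (chromosome 19, 5890160 to 5893956, plus strand, 381 amino acids), whose 36 libraries ranged from 719 to 1282 FPKM. Its condition means ran from 784 ± 59.7 FPKM in “CS” winter berries at stage 35 to 1241 ± 47.2 FPKM at stage 38 in the same series (SD, n = 3), and its largest difference between cultivars was -0.39 ± 0.11 (adjusted p = 0.0039) in summer at stage 36. VIT_208s0007g03830 (chromosome 8, 266 amino acids) ranged from 542 to 1439 FPKM and VIT_206s0004g04660 from 3049 to 7694 FPKM. The lowest library of VIT_208s0007g03830 was replicate 3 of “Riesling” summer stage 35. VIT_218s0001g00360 had a ratio of the highest to the lowest condition mean of 2.04, and VIT_217s0000g10430 (chromosome 17, 12 exons) of 2.17. The last was called once, lower in winter in “Riesling” at stage 38 (-1.06 ± 0.10, adjusted p = 9.0e-10), a call that was lost without replicate 3 of the summer berries. The summer libraries of that comparison go against their label.

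Several pairs of members had nearly the same profile over the 36 libraries. The description is of log2(FPKM + 1) with Pearson's r, and libraries of a condition are not independent of each other. VIT_219s0014g02740 and VIT_219s0014g02730 (chromosome 19, 2785039 to 2790543) had an r of 0.999, and the FPKM of the second was 0.688 to 0.833 of the first. They lie on opposite strands with 373 bases of exon in common. VIT_208s0056g01600 and VIT_208s0056g01610 adjoin each other within 969 bp of chromosome 8 and had an r of 0.978. VIT_213s0019g01430, a gene of 650 amino acids on chromosome 13, and VIT_203s0091g00990, a gene of 34 amino acids on chromosome 3, had an r of 0.976 and a ratio of 0.757 to 1.08. VIT_205s0020g01170 (chromosome 5) and VIT_213s0073g00560 (chromosome 13) had an r of 0.941 with a ratio that varied from 0.310 to 0.722.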

How the data were processed

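The study sequenced RNA of deseeded berries from 36 samples, 12 conditions with 3 biological replicates, as single reads on an Illumina instrument. The authors aligned the reads to the grapevine genome 12X V2 (Bowtie is named in the submitters' processing notes). They deposited estimated counts per gene, which need not be whole numbers, and FPKM normalised to transcript length and reads, while the counting program is not given in the sources used here. A deposited series table held 36 further columns that could not be matched to single samples and were not used, and the columns of fold changes and p-values of the authors' own comparisons were not used.

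Members were the 60 genes with the highest mean FPKM after the 215 genes of the study's pathway and hormone lists were left out. The members and lists were chosen with earlier results of these data known. Shares are sums of FPKM over the library's total FPKM and were compared by ranges, with no test. Expected counts were rounded and tested in edgeR 4.0.16 (R 4.3.3) with TMM factors, filterByExpr and quasi-likelihood tests, 12 condition means in 1 fit, and p-values adjusted after Benjamini and Hochberg over 20183 genes. The named members were the 10 highest, the 5 with the most calls for season, stage and cultivar, and the 5 with the lowest high to low ratio, counting members called in 1 direction, with ties resolved by the median absolute log2 fold change. Alternatives were limma 3.58.1 on log2 FPKM, DESeq2 1.42.0, other filters, thresholds and list sizes, a replicate block, fits of only the compared conditions and single libraries left out. The fits were tested on simulated data. P-values measure the spread between replicates, each a pool of berries. The study sequenced 1 summer and 1 winter crop of a single year, so they do not cover the spread between years or vineyards.

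The replicate numbers shared by the conditions were checked by correlating deviations from the condition means over 15377 genes. The 3 pairs had r of 0.200, 0.185 and 0.339 for the season in “Riesling” at stage 36 and 0.152, 0.128 and 0.239 for stage 36 against stage 35 in “Riesling” summer, and in every other comparison at least 1 pair was at 0.1 or below. No source states what a number marks.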

Additional observations from a re-analysis of the deposited data

Results flagged for a closer look

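The effect of the season on single members was tested for a difference between the cultivars by the interaction term of the edgeR fit, and members whose adjusted p was at most 0.01 are given here. There were 2 such members at stage 35 (all genes 1.53%), 13 at stage 36 (all genes 11.7%) and 18 at stage 38 (all genes 13.4%). At stage 35 they were VIT_202s0025g01320, at 0.78 ± 0.17 (adjusted p = 0.00815), and VIT_205s0049g00550, at -2.40 ± 0.53, as the log2 difference of “Riesling” minus “CS”. The value of VIT_205s0049g00550 is a description, since its means over the summer and the “Riesling” libraries were below the lowest mean of a member. Its highest “Riesling” summer replicate at that stage is the library that stood apart. Among the members described with the season, VIT_219s0090g01340 had a smaller rise in “Riesling” at stage 36, with a difference of -1.35 ± 0.37 (adjusted p = 0.00991), and VIT_205s0094g00340 a larger one at stage 38, with a difference of 1.64 ± 0.42 (adjusted p = 0.0051). The values at stage 38 rest on the “Riesling” summer libraries that go against their label, and the adjusted p of VIT_219s0090g01340 lies next to the threshold. With 3 samples in a condition, single samples were not tested for lying apart from their group.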

How the results depend on the processing

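The size of the share depended on its definition. With expected counts in place of FPKM it was, at stage 35, stage 36 and stage 38, 21.1, 23.7 and 26.3% in “CS” summer, 20.4, 26.3 and 22.5% in “CS” winter, 16.2, 16.1 and 18.4% in “Riesling” summer and 15.7, 22.2 and 23.3% in “Riesling” winter berries. The 30 highest genes took 27.1, 31.1 and 35.9% in “CS” summer, 25.6, 34.6 and 33.1% in “CS” winter, 20.1, 21.9 and 22.9% in “Riesling” summer and 19.8, 28.9 and 33.9% in “Riesling” winter berries, and the 120 highest 37.7, 41.8 and 45.9% in “CS” summer, 37.3, 46.2 and 42.4% in “CS” winter, 30.03, 31.4 and 32.8% in “Riesling” summer and 30.1, 39.5 and 43.1% in “Riesling” winter berries. Keeping the genes of the study's pathway lists gave 37.3% and 42.1% in “CS” summer berries at stage 36 and stage 38, 41.7% and 38.9% in “CS” winter berries at these stages and 39.5% in “Riesling” winter berries at stage 38. Ranking by the median gave 39.5% in “CS” winter berries at stage 36. The other shares under these 2 settings moved by less than the SD of the replicates.

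With an adjusted p of at most 0.05 and no fold limit, the members called with the season numbered, stage by stage, 27, 30 and 34 in “CS” and 29, 32 and 43 in “Riesling”. Along the stages they numbered 23 and 15 in “CS” summer, 25 and 33 in “CS” winter, 36 and 25 in “Riesling” summer and 43 and 32 in “Riesling” winter berries, and between the cultivars 32, 39 and 39 in summer and 34, 28 and 29 in winter. Of all genes tested, 30.95% to 59.8% were past this threshold for the season, 10.02% to 51.5% along the stages and 34.4% to 47.7% between the cultivars. Fitting only the 2 compared conditions gave 3 members for the season in “Riesling” at stage 35, 0 for stage 36 against stage 35 in “Riesling” summer, 12 for the same step in “Riesling” winter, 5 between the cultivars in summer at stage 35 and 9 in winter at stage 38. The limma-trend fits on log2 FPKM, with a pseudocount of 1 or 0.1, called 5 instead of 9 members for stage 36 against stage 35 in “CS” winter berries. Without a filter on low counts 1 instead of 2 members differed in season effect at stage 35. Without the 5 “Riesling” summer libraries, an alternative chosen after seeing the data, the winter cultivar comparison at stage 38 gave 9. The causes of these differences were not tested. The counts under DESeq2, under RLE size factors in edgeR and under TMM factors set without the members were within 1.5 times those given, and the members' directions in the results for single members did not turn.

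Leaving out 1 library at a time gave 3 to 7 members for stage 36 against stage 35 and 1 to 6 for stage 38 against stage 36 in “CS” summer berries, 12 to 24 for stage 36 against stage 35 in “Riesling” winter berries and 5 to 7 between the cultivars in winter at stage 36. For each named member with a call, the result followed was its called comparison with the largest absolute log2 fold change. That choice favours keeping the call, and weaker calls of these members were not followed. Of 327 values of 21 such results for single members, 317 kept their direction and their side of the threshold, 10 kept the direction and lost the call, and 0 reversed. The lost calls were those of VIT_205s0049g00520 and VIT_216s0022g00960 under limma-trend, of VIT_208s0056g01600 and VIT_205s0094g00340 with only the compared conditions, and of VIT_205s0049g00760 and VIT_217s0000g10430 without 1 library each.

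The replicate numbers were tried as a block. Where all 3 pairs of same-numbered samples had an r above 0.1, the block left the counts at 20 for the season in “Riesling” at stage 36 and at 13 for stage 36 against stage 35 in “Riesling” summer. Elsewhere the block moved counts by at most 1, among them from 2 to 1 for the season effect at stage 35. With the block and only the compared conditions, chosen after seeing the data, the counts were 2 for the season in “Riesling” at stage 35, 11 for stage 38 against stage 36 in “CS” summer, 0 and 8 for stage 36 against stage 35 in “Riesling” summer and winter, and 3 and 9 between the cultivars in summer at stage 35 and winter at stage 38. The interaction was not run with limma, with DESeq2, with only the compared conditions or without single libraries. The lowest expected count of a member in a library was 145, and 3 replicates per condition limit the precision of every comparison.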
